A study of Mus musculus with 7 samples.

Results

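The organic anion and cation transporters were taken as all protein-coding genes of the count table whose symbol begins with Slc22a, Slc47a or Slco, apart from 2 genes that are not part of the set. They came to 39 of 42256 genes: 24 Slc22a genes, 2 Slc47a genes and 13 Slco genes. Libraries were made from 7 kidney samples of adult male mice of mixed 129S1/Sv x C57BL/6 background, 4 labelled CDH11-/- and 3 labelled CDH11+/+ for the gene of cadherin-11. All mice had undergone removal of 1 kidney and then were given angiotensin II by implanted pump (800 ng/kg/min), and kidneys were taken 4 weeks after surgery. The design thus compares the genotypes in injured kidneys alone, and the labels do not say how the gene was disrupted.

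Kidney proximal tubule cells clear drugs, toxins and metabolic acids from blood by moving them through the cell into urine. Organic anion transporters of the SLC22 family exchange blood anions for dicarboxylates at the basolateral membrane, organic cation transporters let positively charged compounds in on the same side, and MATE exporters of the SLC47 family release them into urine in exchange for protons. OATP proteins, encoded by Slco genes, carry larger amphipathic anions such as bile acids, steroid conjugates, thyroid hormones and prostaglandins. Several SLC22 members instead recover urate or carnitine from the filtrate.

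Total counts per library ranged from 72087906 to 84786351. Transcripts of Cdh11 were present in all libraries, at 953, 684, 1006 and 876 counts in knockout-labelled libraries and 479, 338 and 932 counts in wild-type-labelled libraries. Cdh11 was not called (log2 fold change 0.56, adjusted p = 0.14, edgeR), and its groups overlapped in CPM. Its transcript level thus does not bear out the labels, but such counts cannot show whether the allele is disrupted. All groups are named here by their label. The Y-linked genes Ddx3y, Eif2s3y, Kdm5d and Uty summed to 64.7 CPM (counts scaled to a common library size) in wild-type-labelled replicate 3 and 111 to 145 CPM in the other 6 libraries. Without that library 16 transporters were called higher and 1 lower. Mitochondrial ribosomal RNA made up 10.7% to 13.5% of counts in knockout-labelled libraries and 13.5% to 18.2% in wild-type-labelled libraries. The labels speak of mice of each genotype but do not tie libraries to single animals, so p-values measure the spread between these samples.

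More transporters were higher than lower in the knockout-labelled kidneys. Of the 39 genes, 32 passed the filter on low counts, and of these 15 rose and 1 fell, at an adjusted p under 0.05 (edgeR's quasi-likelihood test, Benjamini-Hochberg adjustment over all genes tested). Over all 17964 genes tested 29.7% were called, 16.8% higher and 12.9% lower, while 46.9% of the tested transporters were called higher. The median log2 fold change of the tested transporters was 0.31, and that of all tested genes was -0.01. Among the 23 transporters with a mean of at least 5 CPM, 14 rose and 1 fell, against 21.6% higher and 16.8% lower of 10904 genes at that level. Groups were fully separated in 20 of those 32 transporters (15 with higher and 5 with lower values in knockout-labelled kidneys), and in 38.5% of all tested genes.

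**Figure D1:**
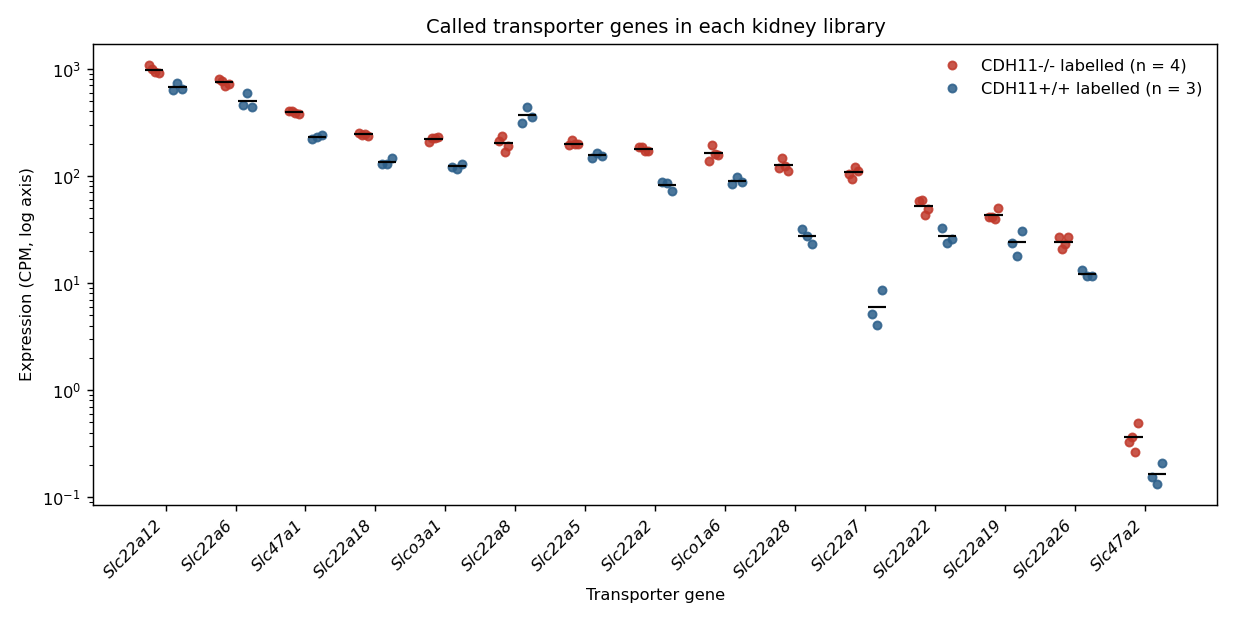
Expression in CPM (log axis) of 15 called transporter genes in each library, with red points for the 4 CDH11-/- labelled libraries, blue points for the 3 CDH11+/+ labelled libraries and a bar at each mean. Slc22a7 shows the widest gap, and Slc22a8 is the gene whose red points lie below the blue ones.

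Proximal tubule markers moved in the same direction as most transporters. Of 14 such markers 9 rose and 1 fell, with a median log2 fold change of 0.50, and their summed expression was 19547 to 20926 CPM in knockout-labelled libraries against 13176 to 16429 CPM in wild-type-labelled libraries. All 3 markers of segment 3, the straight part of the proximal tubule, rose, with sums of 2082 to 2269 CPM in knockout-labelled kidneys and 423 to 643 CPM in wild-type-labelled ones. Of 3 markers of segments 1 and 2, which are also among the 14, 2 rose. Their sums were 502 to 613 CPM in knockout-labelled kidneys and 113 to 386 CPM in wild-type-labelled ones. All 4 collecting duct markers fell, and of 7 endothelial markers 3 fell and 0 rose. Of 3 thick limb markers 1 fell, and of 4 leukocyte markers 0 were called. Of 9 hepatocyte markers only 4 passed the filter on low counts, and 1 of them fell. That was Apob, at 304 to 373 CPM in knockout-labelled libraries and 555 to 734 CPM in wild-type-labelled libraries. Alb was at 2.34 to 7.41 CPM over all libraries and was not called. Fewer cells of a type and less RNA per cell cannot be told apart in whole tissue, and the part of these markers in the transporter results was not tested. When each transporter was divided by the summed proximal tubule markers, 13 of the 15 genes that rose had a higher mean in the knockout-labelled group, and 10 of the 15 were higher without overlap. Slc22a5 was among the exceptions, with a ratio of 0.936 between the group means. On that scale Slc22a6 and Slc22a12 had ratios of 1.08 and 1.05, Slc22a7 13.4, Slc22a28 3.23 and Slc22a8 0.397. Several transporters not called were lower without overlap on it, among them Slc22a17, Slc22a23, Slco2b1 and Slco4a1 (ratios 0.772, 0.669, 0.552 and 0.423). So were Slc22a3, Slc22a14, Slc22a15, Slc22a27 and Slc22a29, at lower levels. The counts out of 15 thus leave out falls on that scale, and the share over all genes was not computed.

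**Figure D2:**
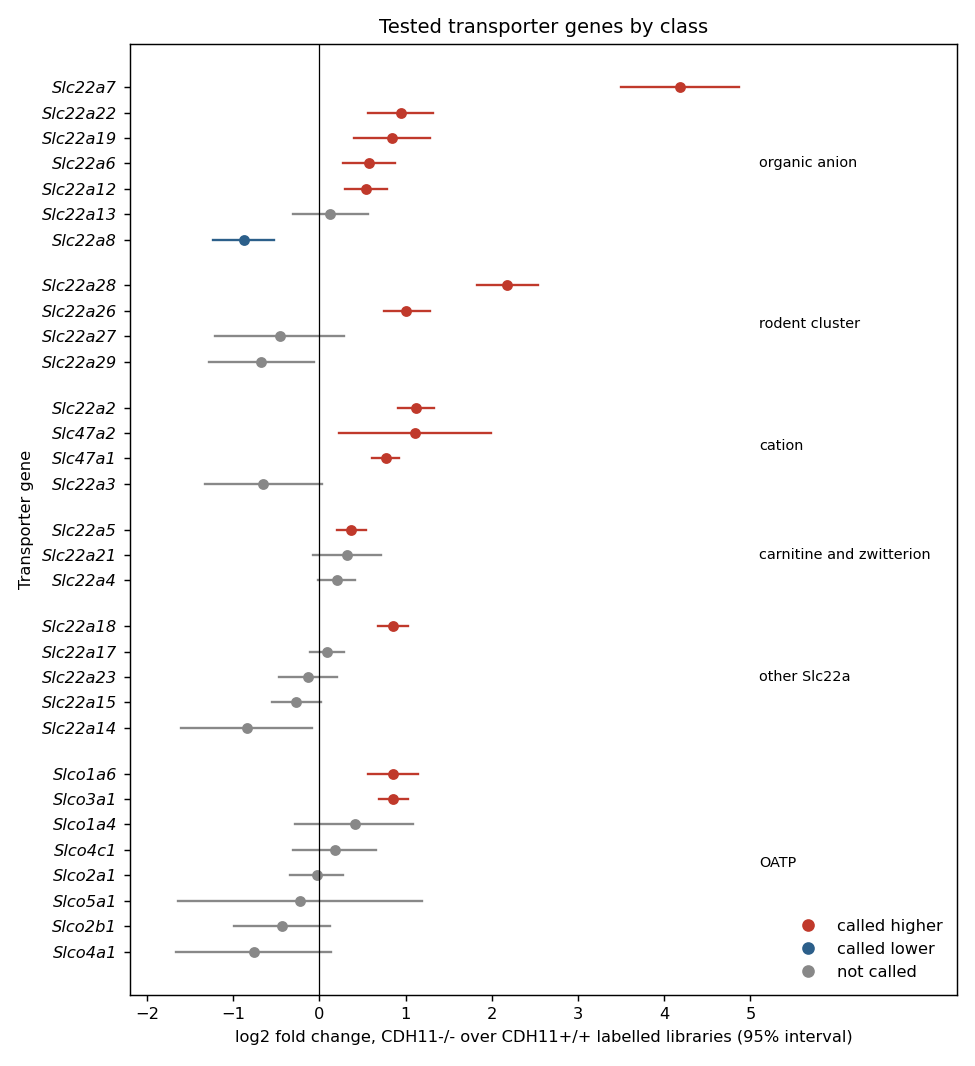
Log2 fold change of CDH11-/- over CDH11+/+ labelled libraries for 31 tested transporter genes, grouped by class, with 95% intervals as lines. Red marks genes called higher (14), blue the gene called lower (1) and grey genes not called (16), and a 0 line marks equal expression.

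Within the organic anion transporters, 5 of 7 tested genes rose and 1 fell, or 71.4% higher and 14.3% lower. Over all tested genes these shares were 16.8% and 12.9%. The main basolateral uptake genes moved in opposite directions. Slc22a6 encodes OAT1, the p-aminohippurate exchanger that takes up many drugs and uremic anions. Its expression was 805, 775, 684 and 717 CPM in knockout-labelled libraries and 462, 597 and 436 CPM in wild-type-labelled libraries. Every knockout-labelled library was above every wild-type-labelled one, and the gene rose 1.5-fold (log2 fold change 0.58, SE 0.116, adjusted p = 0.00564, edgeR). Slc22a8 encodes OAT3, which accepts a wider range of anions, including steroid sulfates. Its expression was 213, 234, 167 and 189 CPM in knockout-labelled libraries and 314, 435 and 354 CPM in wild-type-labelled libraries. Here the groups stood apart the other way, and Slc22a8 fell to 201 ± 29.3 CPM (SD, n = 4) in knockout-labelled kidneys, against 368 ± 61.7 CPM (SD, n = 3) in wild-type-labelled ones (log2 fold change -0.87, SE 0.138, adjusted p = 0.00221, edgeR). Per kilobase of exon, the ratio of Slc22a6 to Slc22a8 was 3.71, 3.25, 4.03 and 3.72 in knockout-labelled libraries and 1.44, 1.35 and 1.21 in wild-type-labelled libraries, a ratio chosen after the values were seen.

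Slc22a8 and Slc22a6 are neighbours on mouse chromosome 19 (mm10, plus strand), at 8591254 to 8611835 and 8618039 to 8628299, with 6203 bases between them. Their promoter windows are shown because these adjacent genes moved in opposite directions. The RefSeq start site used for Slc22a8 lies inside the gene span given above, so its window is not upstream of 8591254. The windows span 250 bases before to 50 after the start site, from RefSeq on GRCm38.p6, plus strand, written 5′ to 3′, and capitals mark the bases from the start site on:
Slc22a6, chr19:8617746-8618045: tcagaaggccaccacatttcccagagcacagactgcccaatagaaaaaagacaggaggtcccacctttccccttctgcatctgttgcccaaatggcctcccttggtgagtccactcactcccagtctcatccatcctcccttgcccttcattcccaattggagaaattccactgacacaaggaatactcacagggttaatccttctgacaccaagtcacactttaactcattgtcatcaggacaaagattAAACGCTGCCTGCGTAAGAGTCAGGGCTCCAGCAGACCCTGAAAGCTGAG
Slc22a8, chr19:8592932-8593231: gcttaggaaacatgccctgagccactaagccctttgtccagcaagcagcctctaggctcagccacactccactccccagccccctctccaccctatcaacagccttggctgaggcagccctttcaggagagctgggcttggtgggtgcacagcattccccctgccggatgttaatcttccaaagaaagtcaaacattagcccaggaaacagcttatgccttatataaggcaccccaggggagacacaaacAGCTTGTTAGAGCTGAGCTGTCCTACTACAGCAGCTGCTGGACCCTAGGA
Searched on both strands, the motif CAAAGTCCA of HNF4 proteins, which act on many transporter genes, was in 0 windows of the 33 transporters with a window in the table and in 0.555% of all 27025 genes with one. The search describes letters in short windows only. With a motif this rare among all genes, 0 of 33 does not show that HNF4 sites are absent, and Slc22a7 had no window.

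Slc22a7, the gene of OAT2, which carries organic anions and nucleotides, had the largest difference of the set. Its expression was 103, 94.3, 121 and 112 CPM in knockout-labelled libraries and 5.16, 4.03 and 8.54 CPM in wild-type-labelled libraries. Even the lowest knockout-labelled library was far above the highest wild-type-labelled one, and Slc22a7 rose 18.1-fold (95% interval 11.3 to 29.1, adjusted p = 9.05e-05, edgeR). Slc22a7 lies on chromosome 17 (mm10, 46432183 to 46438457, minus strand), and 0% of its 31-base words occur in transcripts of another gene. Per kilobase it was the 10th most abundant of the 39 genes in knockout-labelled libraries and the 23rd in wild-type-labelled libraries. Per kilobase its ratio to Slc22a8 was 1.03 ± 0.261 (SD, n = 4) in knockout-labelled kidneys and 0.0309 ± 0.0138 (SD, n = 3) in wild-type-labelled ones.

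Slc22a12 encodes URAT1, the apical urate exchanger, and was the most abundant transporter of the set per kilobase in both groups. Its expression was 1086, 999, 927 and 909 CPM in knockout-labelled libraries and 634, 743 and 646 CPM in wild-type-labelled libraries. All knockout-labelled libraries were higher, and the gene rose 1.45-fold (adjusted p = 0.00279, edgeR). Slc22a12 overlaps the transcribed region of Nrxn2 in the annotation, with 28.5% of its 31-base words in transcripts of that gene, so reads of this pair may not be separable.

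Slc22a22 encodes OAT-PG, a transporter of the mouse kidney that takes up prostaglandin E2. OAT-PG transcripts came to 58.6, 59.8, 43.5 and 49.5 CPM in knockout-labelled libraries and 32.8, 23.5 and 25.9 CPM in wild-type-labelled libraries. It rose 1.93-fold without overlap (adjusted p = 0.00213, edgeR). Slc22a19, the gene of the sulfate conjugate transporter Oat5, stood at 41.0, 40.9, 39.7 and 50.6 CPM in knockout-labelled libraries and at 23.8, 17.9 and 30.3 CPM in wild-type-labelled libraries. It rose 1.79-fold (adjusted p = 0.00806, edgeR), also without overlap. Slc22a13, the gene of the urate and nicotinate transporter OAT10, had 49.3, 37.3, 53.9 and 57.4 CPM in knockout-labelled libraries and 46.3, 36.5 and 53.2 CPM in wild-type-labelled libraries. The groups of Slc22a13 overlapped and it was not called (log2 fold change 0.13, 95% interval -0.31 to 0.56), and 41.5% of its 31-base words are shared with the pseudogene Slc22a13b-ps. Slc22a20, the olfactory OAT6 gene, had 0 counts in all 7 libraries.

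The rodent genes Slc22a26 to Slc22a29, counted among organic anion transporters by sequence, lie on chromosome 19 between Slc22a19 and Slc22a8, and they did not move together. Slc22a28 had 119, 148, 123 and 110 CPM in knockout-labelled libraries and 31.9, 27.7 and 23.0 CPM in wild-type-labelled libraries. It was 4.54-fold higher (95% interval 3.55 to 5.80, adjusted p = 4.46e-05, edgeR), the second largest rise of the set. Slc22a26 had 26.9, 20.9, 22.9 and 26.8 CPM in knockout-labelled libraries and 13.1, 11.7 and 11.5 CPM in wild-type-labelled libraries, and rose 2.02-fold (adjusted p = 0.000247, edgeR). Both genes were higher in every knockout-labelled library. Slc22a27 and Slc22a29 did not pass the test, with log2 fold changes of -0.46 (95% interval -1.21 to 0.29) and -0.67 (95% interval -1.28 to -0.06). Slc22a27 ranged from 0.182 to 0.201 CPM in knockout-labelled libraries and from 0.231 to 0.312 CPM in wild-type-labelled ones. Slc22a29 ranged from 1.94 to 2.24 CPM in knockout-labelled libraries and from 2.50 to 4.95 CPM in wild-type-labelled ones, with the highest value in wild-type-labelled replicate 3. On all libraries it was called lower with DESeq2 (adjusted p = 0.0251, DESeq2). The same held in a fit on protein-coding genes only (adjusted p = 0.0498, edgeR). Leaving out wild-type-labelled replicate 1 or 2 also gave a call as lower (adjusted p = 0.0477 and 0.0364, edgeR). Without wild-type-labelled replicate 3 its log2 fold change was -0.27 (adjusted p = 0.204, edgeR). Of the 31-base words of Slc22a28, 68.2% occur in another gene, and the shares were 46.9% for Slc22a27, 44.0% for Slc22a29 and 11.9% for Slc22a26, so the separate values of Slc22a28, Slc22a27 and Slc22a29 are uncertain. In the 955 kb from Slc22a19 to Slc22a6, 4 of 7 transporters rose and 1 fell, and the 3 other genes tested there were not called. Over all tested genes 16.8% were called higher and 12.9% lower.

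Of 5 organic cation transporter genes 4 rose and 0 fell (80% higher, against 16.8% of all tested genes). Slc22a2 encodes OCT2, the basolateral entry route for compounds such as creatinine and metformin. OCT2 transcripts came to 188, 185, 169 and 171 CPM in knockout-labelled libraries and 87.6, 85.4 and 72.9 CPM in wild-type-labelled libraries. All 4 knockout-labelled values exceeded the wild-type-labelled ones, and Slc22a2 rose 2.17-fold (SE 0.0820 on the log2 scale, adjusted p = 5.8e-05, edgeR). Slc47a1, the gene of the apical exporter MATE1, had 407, 407, 387 and 381 CPM in knockout-labelled libraries and 222, 233 and 240 CPM in wild-type-labelled libraries, and rose 1.70-fold (adjusted p = 8.76e-05, edgeR).

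Per kilobase, the ratio of Slc47a1 to Slc22a2 was 1.58, 1.61, 1.69 and 1.64 in knockout-labelled libraries and 1.86, 2 and 2.42 in wild-type-labelled libraries. This ratio, picked with the values known, was lower in knockout-labelled libraries without overlap. Slc22a3, the gene of OCT3, a cation transporter of many cell types, ranged from 0.627 to 1.42 CPM in knockout-labelled libraries and from 1.38 to 1.73 CPM in wild-type-labelled libraries, and was not called (log2 fold change -0.65, 95% interval -1.33 to 0.03). It was called lower without knockout-labelled replicate 1 (adjusted p = 0.0250, edgeR). Slc47a2, a second MATE gene whose mouse form is known from testis, had 0.331, 0.363, 0.266 and 0.489 CPM in knockout-labelled libraries and 0.156, 0.134 and 0.208 CPM in wild-type-labelled libraries. Its call as higher (adjusted p = 0.0365, edgeR) did not hold when knockout-labelled replicate 1, 2 or 4 or wild-type-labelled replicate 1 or 2 was left out (highest adjusted p = 0.110). Slc47a2 and Slc47a1 are neighbours on the minus strand of chromosome 11, with 540 bases between them.

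**Figure D3:**
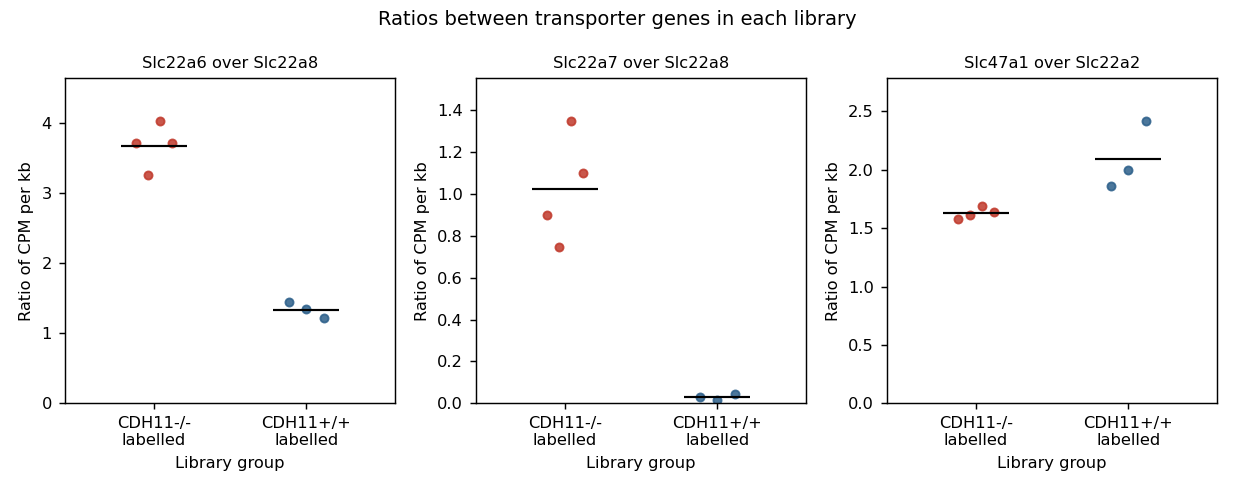
Ratios of CPM per kilobase of exon between pairs of transporter genes in each library, with 4 CDH11-/- labelled libraries in red, 3 CDH11+/+ labelled libraries in blue and a bar at each mean. The Slc22a6 to Slc22a8 ratio averaged 3.68 in the red group and 1.33 in the blue group, Slc22a7 to Slc22a8 averaged 1.03 in the red group and 0.0309 in the blue group, and Slc47a1 to Slc22a2 averaged 1.63 in the red group and 2.09 in the blue group.

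Of 3 tested carnitine and zwitterion carriers 1 rose (33.3%, against 16.8% of all tested genes), a share that rests on few genes. Slc22a5 encodes OCTN2, which recovers carnitine from urine with sodium. It had 193, 214, 198 and 197 CPM in knockout-labelled libraries and 147, 165 and 153 CPM in wild-type-labelled libraries. The groups did not overlap and Slc22a5 rose 1.29-fold (adjusted p = 0.00345, edgeR). Slc22a4, the gene of the ergothioneine transporter OCTN1, had 34.8, 31, 34.1 and 28.0 CPM in knockout-labelled libraries and 27.3, 28.3 and 27.9 CPM in wild-type-labelled libraries. These groups overlapped and Slc22a4 was not called (log2 fold change 0.20, 95% interval -0.01 to 0.41), although it was called higher without knockout-labelled replicate 4 (adjusted p = 0.0246, edgeR). Slc22a21, a carnitine transporter gene of the mouse, ranged from 3.30 to 4.14 CPM in knockout-labelled libraries and from 2.58 to 3.49 CPM in wild-type-labelled libraries. Slc22a21 was not called (adjusted p = 0.146, edgeR), but was called higher without wild-type-labelled replicate 3 (adjusted p = 0.0427, edgeR). Slc22a5 and Slc22a21 share 35.8% and 29.9% of their 31-base words with each other. Slc22a16, a carnitine transporter gene of testis, had 0 counts in all libraries.

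Of the remaining Slc22a genes, 1 of 5 rose, a share of 20% that is near the 16.8% of all tested genes. Slc22a18, an imprinted gene of a putative transporter, had 249, 241, 246 and 238 CPM in knockout-labelled libraries and 128, 129 and 146 CPM in wild-type-labelled libraries. The spread within each group was small beside the gap, and Slc22a18 rose 1.81-fold (SE 0.0678 on the log2 scale, adjusted p = 7.86e-05, edgeR). Slc22a23, an orphan member, had 120, 126, 108 and 105 CPM in knockout-labelled libraries and 98.9, 129 and 150 CPM in wild-type-labelled libraries. Slc22a17, the gene of a lipocalin-2 receptor, had 22.4, 22.6, 22.6 and 19.4 CPM in knockout-labelled libraries and 19, 21.8 and 20.4 CPM in wild-type-labelled libraries. Both genes overlapped between groups and were not called, with log2 fold changes of -0.13 (95% interval -0.47 to 0.20) for Slc22a23 and 0.09 (95% interval -0.11 to 0.29) for Slc22a17. Slc22a23 had a log2 fold change of -0.00 when wild-type-labelled replicate 3 was left out. Slc22a15 (3.44 to 3.83 CPM in knockout-labelled and 4.08 to 4.69 CPM in wild-type-labelled libraries) and the sperm gene Slc22a14 (0.182 to 0.288 CPM in knockout-labelled and 0.388 to 0.543 CPM in wild-type-labelled libraries) did not overlap, yet were not called (adjusted p = 0.0998 and 0.0570, edgeR).

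Among the Slco genes 2 of 8 tested members rose and 0 fell. The share called higher was 25%, near the 16.8% of all tested genes and the 21.6% of those averaging at least 5 CPM. Slco3a1, which encodes a carrier of prostaglandins and thyroxine, had 209, 228, 224 and 229 CPM in knockout-labelled libraries and 122, 115 and 130 CPM in wild-type-labelled libraries, and rose 1.82-fold (adjusted p = 7.13e-05, edgeR). Slco1a6, a kidney OATP gene of rodents, had 138, 195, 160 and 158 CPM in knockout-labelled libraries and 84.5, 97.4 and 86.8 CPM in wild-type-labelled libraries, and rose 1.82-fold (adjusted p = 0.000775, edgeR). In neither gene did the groups overlap.

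Other Slco genes expressed at 5 CPM or more were not called, and the groups overlapped in each. Slco2a1, the gene of the prostaglandin uptake transporter, had 36.9, 34.8, 46.5 and 45 CPM in knockout-labelled libraries and 38.7, 39.4 and 47.1 CPM in wild-type-labelled libraries (log2 fold change -0.03, 95% interval -0.34 to 0.27). Slco4c1, which encodes the basolateral carrier of digoxin and thyroid hormone known from human and rat kidney, had 27.0, 19.1, 27.1 and 27.8 CPM in knockout-labelled libraries and 28.0, 16.9 and 22.2 CPM in wild-type-labelled libraries (log2 fold change 0.18, 95% interval -0.31 to 0.66). Neither gene separated the groups. Slco2b1, whose product carries steroid sulfates, had 29.5, 24.2, 31.2 and 27.1 CPM in knockout-labelled libraries and 28.6, 30.7 and 53.6 CPM in wild-type-labelled libraries (log2 fold change -0.43, 95% interval -0.99 to 0.13), with wild-type-labelled replicate 3 apart from the rest. Without that library the log2 fold change of Slco2b1 was -0.09. Slco4a1, the gene of a thyroid hormone carrier, had 11.4, 4.64, 9.85 and 11.6 CPM in knockout-labelled libraries and 21, 10.7 and 16.1 CPM in wild-type-labelled libraries (log2 fold change -0.76, 95% interval -1.66 to 0.14), and was called lower in a fit with 1 surrogate variable (adjusted p = 0.0351, edgeR). Slco1a4 (0.693 to 1.39 CPM over all libraries) and Slco5a1 (0.0401 to 0.156 CPM) were tested and not called. Without wild-type-labelled replicate 2 Slco1a4 was called higher (log2 fold change 0.79, adjusted p = 0.0319, edgeR), and on the deposited normalized values its log2 fold change was -0.28.

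In all, 7 transporters did not pass the filter on low counts. Slco1a5 had 14, 8, 6 and 6 counts in knockout-labelled libraries and 3, 2 and 0 in wild-type-labelled libraries. The liver gene Slco1b2 had 0, 0, 5 and 0 counts in knockout-labelled and 0, 1 and 0 counts in wild-type-labelled libraries. The blood-brain barrier gene Slco1c1 had 4, 0, 2 and 3 counts in knockout-labelled and 8, 6 and 5 counts in wild-type-labelled libraries. Slc22a16, Slc22a20, Slco6c1 and Slco6d1 had 0 counts in every library, and 3 counts correspond to 0.0354 to 0.0416 CPM, the level that a count of 0 allows for counting error alone. Prm1, Prm2 and Tnp1, markers of testis, where Slc22a16, Slco6c1 and Slco6d1 are known to be expressed, were also at 0.

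In the make-up of the transporter pool, Slc22a8, Slc22a28 and Slc22a7 are described here, singled out after their values were seen. Scaled by merged exon length, summed expression of the 39 genes was 1418 to 1551 CPM per kilobase in knockout-labelled libraries and 936 to 1063 CPM per kilobase in wild-type-labelled libraries. Slc22a12 took 29.2% ± 1.19 (SD, n = 4) of that sum in knockout-labelled kidneys and 30.0% ± 0.907 (SD, n = 3) in wild-type-labelled ones, and Slc22a6 took 12.6% ± 0.438 (SD, n = 4) in knockout-labelled kidneys and 12.5% ± 1.48 (SD, n = 3) in wild-type-labelled ones. The shares of both leading genes differed by less than 1 SD. Slc22a8 took 3.46% ± 0.388 (SD, n = 4) in knockout-labelled kidneys, 9th in order, against 9.42% ± 0.958 (SD, n = 3) in wild-type-labelled ones, 3rd in order. Slc22a28 took 4.20% ± 0.471 (SD, n = 4) in knockout-labelled kidneys, against 1.39% ± 0.278 (SD, n = 3) in wild-type-labelled ones, and Slc22a7 took 3.47% ± 0.506 (SD, n = 4) in knockout-labelled kidneys, against 0.286% ± 0.119 (SD, n = 3) in wild-type-labelled ones. In the knockout-labelled libraries Slc22a8 and Slc22a7 had nearly equal levels, at 51.4 ± 7.49 and 51.2 ± 5.49 CPM per kilobase (SD, n = 4).

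**Figure D4:**
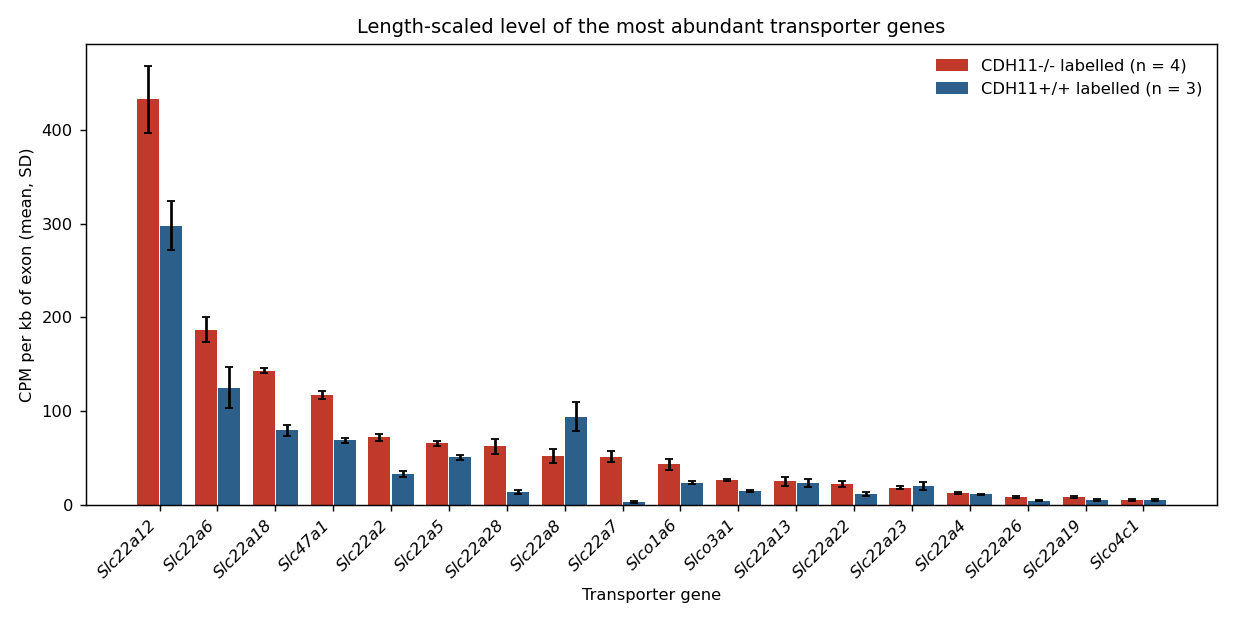
Mean length-scaled expression, in CPM per kilobase of exon with SD as error bars, of 18 transporter genes with high levels in the CDH11-/- labelled libraries (red, n = 4), beside the CDH11+/+ labelled libraries (blue, n = 3). Slc22a12 leads in both groups at 433 and 298, and red bars are lower for Slc22a8, at 51.4 beside 94.0, and for Slc22a23, at 18 beside 19.7.

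Genes that work beside the organic anion transporters moved both ways. Of 22 partner genes for ion gradients, scaffolding, solute transport and urate handling, all tested, 11 rose and 7 fell, with a median log2 fold change of 0.20. These were 50% higher and 31.8% lower, against 16.8% higher and 12.9% lower of all tested genes, whose median was -0.01. Among ABC exporters, Abcc2, Abcc3, Abcc4, Abcb1a and Abcb1b fell, while Abcc6 and Abcg2 rose. The call for Abcc2 was lost without wild-type-labelled replicate 2. That for Abcg2 was lost without knockout-labelled replicate 1 or 2 or wild-type-labelled replicate 1 or 3. Abcc4, the gene of the apical anion exporter MRP4, fell to 55.5 ± 6.27 CPM (SD, n = 4) in knockout-labelled kidneys, against 155 ± 16.7 CPM (SD, n = 3) in wild-type-labelled ones (log2 fold change -1.48, adjusted p = 4.46e-05, edgeR). Abcb1b, a P-glycoprotein gene, fell to 4.32 ± 0.647 CPM (SD, n = 4) in knockout-labelled kidneys, against 22.2 ± 3.04 CPM (SD, n = 3) in wild-type-labelled ones (log2 fold change -2.36, adjusted p = 1.49e-05, edgeR). Rises included Slc17a3, the gene of an apical urate and anion exit channel, at 419 ± 50.8 CPM (SD, n = 4) in knockout-labelled kidneys and 174 ± 27.8 CPM (SD, n = 3) in wild-type-labelled ones (adjusted p = 0.000267, edgeR). The scaffold gene Pdzk1, whose product anchors URAT1 at the brush border, rose 1.83-fold, the organic solute transporter gene Slc51b 2.02-fold and the ABC exporter gene Abcc6 1.89-fold (adjusted p = 0.000400, 0.000226 and 0.000423, edgeR). Slc13a3, the dicarboxylate transporter gene whose product supplies the exchange anion for OAT1 and OAT3, was named after its values were seen and was not called, at 755 ± 38.3 CPM (SD, n = 4) in knockout-labelled kidneys and 823 ± 101 CPM (SD, n = 3) in wild-type-labelled ones (log2 fold change -0.12).

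In the carnitine synthesis and shuttle list 5 of 10 genes rose and 2 fell, with a median log2 fold change of 0.25. These were 50% higher and 20% lower, against 16.8% higher and 12.9% lower of all tested genes, whose median was -0.01. Crot, the peroxisomal octanoyltransferase gene, rose 1.82-fold, Tmlhe, of the first step of carnitine synthesis, 1.47-fold, the carnitine efflux gene Slc16a9 1.40-fold and Cpt2 1.29-fold. Bbox1, of the last step of carnitine synthesis, was lower, at 0.578 ± 0.127 CPM (SD, n = 4) in knockout-labelled kidneys and 2.01 ± 0.492 CPM (SD, n = 3) in wild-type-labelled ones, and Cpt1b fell by a log2 fold change of -0.89. The adjusted p-values of these 6 genes were 0.00128, 0.00367, 0.00459, 0.0106, 0.000854 and 0.00193 (edgeR) in the order named. Slc16a9 is also in the partner list above.

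Among 14 transcription factors known to act on transporter genes 4 rose and 2 fell, with a median log2 fold change of 0.27. In all 42.9% of them were called, against 29.7% of all tested genes and 38.4% of those averaging at least 5 CPM. The share called lower was 14.3%, against 12.9% of all tested genes. Nr1h4, the gene of the bile acid receptor FXR, rose 1.73-fold, Hnf4g 1.74-fold and Stat5a 1.55-fold (adjusted p = 0.000127, 0.00462 and 0.0154, edgeR), and the call for Stat5a did not hold when wild-type-labelled replicate 1 or 2 was left out (highest adjusted p = 0.0648). Nfe2l2, the gene of NRF2, fell by a log2 fold change of -0.70 (adjusted p = 0.000179, edgeR). Nr1i3, the gene of CAR, fell by a log2 fold change of -1.46 (adjusted p = 0.0215, edgeR), a call lost on the deposited normalized values and without knockout-labelled replicate 2 or 3 or wild-type-labelled replicate 2 or 3. Hnf4a, singled out after its values were seen, was not called, with a log2 fold change of -0.13.

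**Figure D5:**
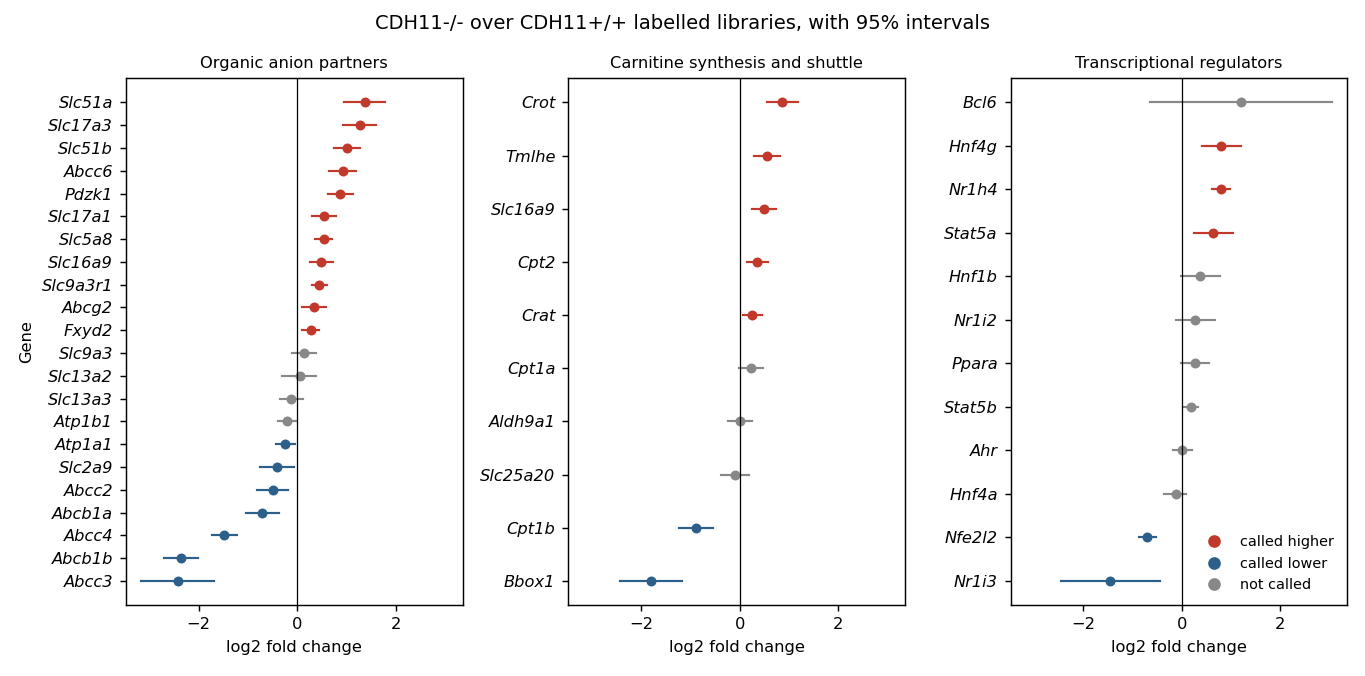
Log2 fold change of CDH11-/- over CDH11+/+ labelled libraries, with 95% intervals, for the organic anion partner genes (22), the carnitine genes (10) and the transcriptional regulators (12 drawn), ordered from highest to lowest. Red marks genes called higher (11, 5 and 3), blue genes called lower (7, 2 and 2) and grey genes not called.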

How the data were processed

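RNA of 7 mouse kidney samples was sequenced from directional libraries, per the labels' protocols. The authors' deposited expected counts hold whole numbers only and were tested as they stand. DRAGEN, DESeq2 and mm10 are named, without versions, per the submitters' processing notes. No source used here gives the annotation or the strand setting. The authors' deposited normalized signal equals the counts times factors that differ between genes. For some genes the factors also differed between libraries, as Slco1a4 had a log2 fold change of -0.28 on that signal and 0.41 on the counts. The signal served only as an alternative.

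Symbols, positions and merged exon lengths came from GENCODE M21, in which all 42256 identifiers have a record. Groups followed the genotype label. All 21 pairs of libraries differed by more than sampling noise (lowest median chi-square per gene 2.69). The main test was edgeR 4.0.16 in R 4.3.3, with the robust quasi-likelihood test, filterByExpr, TMM scaling, no covariates and 2-sided p-values, fitted on 17964 genes and adjusted by Benjamini-Hochberg. CPM used TMM-scaled library sizes. The 95% intervals come from the SE and t quantiles at 5 degrees of freedom. The step was tested on simulated counts. Shared sequence was measured in 31-base words of GENCODE transcripts, and promoter windows came from RefSeq (33 of 39 genes matched). The median log2 fold change of all tested genes moved by under 0.1 under every scaling.

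Alternatives used DESeq2 1.42.0, limma 3.58.1 and sva 3.50.0. Values in every library are given for called transporters and for others averaging 5 CPM or more. Up to 6 called genes of each partner list are given with values, and further ABC exporters are named by direction only. Members, lists and tests were chosen with earlier results of these data known. Results of 1 transporter and 2 regulators are not reported here; they remain in the counts over lists but are not drawn.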

Additional observations from a re-analysis of the deposited data

Results flagged for a closer look

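In the 4 knockout-labelled libraries, 3 of 32 tested transporters had a library whose gap to the nearest other exceeded the 95% limit of Dixon's test, which chance alone exceeds in about 1 in 20 groups. Slc22a17 was lowest in knockout-labelled replicate 4 at 19.4 CPM. Slc22a19 was highest in that same library at 50.6 CPM, and its rise was called with and without it. Slco4c1 was lowest in knockout-labelled replicate 2 at 19.1 CPM.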

How the results depend on the processing

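Of the 16 called transporters, 14 kept their call and direction under each of the 17 alternatives that tested them, and Slc47a2 was among those that lost it, as given above; without the low-count filter Slc47a2 was also not called (log2 fold change 1.10). The number of transporters called higher was 13 to 16 when a library was left out. The number called lower was 1, and it was 2 with DESeq2, 3 with 1 surrogate variable (Slc22a8, Slc22a14 and Slco4a1), 2 with a fit on protein-coding genes only (chosen after seeing the data) and 1 to 2 when a library was left out. Slc22a29 was the added gene with DESeq2 and in the fit on protein-coding genes. Direction reversed only in transporters that were not called: Slc22a13 (-0.01 without wild-type-labelled replicate 2), Slco1a4 (-0.28) and Slco5a1 (0.01) on the deposited normalized values, Slco5a1 (0.10) without wild-type-labelled replicate 1, and Slco2a1 at 0.01, 0.03 and 0.05 without knockout-labelled replicate 1 or 2 or wild-type-labelled replicate 3. With libraries left out in turn (knockout-labelled replicate 1 gave no value for Slco5a1), the log2 fold change ran from -0.01 to 0.25 for Slc22a13, from -0.10 to 0.05 for Slco2a1 and from -0.61 to 0.10 for Slco5a1. The cause was not tested. Slc22a13, Slco1a4, Slco2a1 and Slco5a1 are therefore given no direction. No paired analysis was possible because the labels give no replicate numbers shared between groups. Genes under 1 CPM rest on few counts. The 95% intervals cover the spread between libraries, and floors of 3 counts cover counting error only.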
